A study of Mus musculus with 4 samples.

Results

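Basal keratin tumour cells were the droplets of 4 mouse mammary tumour libraries that held transcripts of the basal epithelial keratins Krt5 and Krt14 and none of the leukocyte genes tested. Among cells with at least 200 detected genes and under 20% mitochondrial UMIs (unique molecular identifiers, 1 per captured RNA molecule), members were chosen by their counts: at least 5 UMIs of Krt5 plus Krt14, 0 of Ptprc, 0 of Cd3d, Cd3e and Cd3g, 0 of Csf1r and Adgre1, and fewer than 2 of the milk protein genes Wap and Csn3. The rule took 1442 of 26435 cells, made up of 338 of 6095 in the control library, 184 of 5453 with phenformin, 541 of 6619 with poly I:C and 379 of 8268 with the combination. Because the rule used these counts, the levels of Krt5 and Krt14 in the class describe how it was drawn.

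The libraries came from orthotopic tumours of the MT4788 mammary line in FVB mice, with the genotype given as WT, and were taken on day 4. The control received saline and PBS, the phenformin group saline and phenformin, the poly I:C group poly I:C and PBS, and the combination group poly I:C and phenformin. The design names 4 tumours for the 4 conditions, and the labels give no doses. Poly I:C mimics viral double-stranded RNA and is sensed by Tlr3 and the RIG-I-like receptors, and phenformin is a biguanide that inhibits respiratory complex I. Each treatment had 1 library, so no test between treatments was possible: the 95% intervals given here are exact Poisson or binomial intervals that cover counting error within a library only, and the spread between tumours is unknown. Dissociated cells had been enriched on CD45, a leukocyte protein, with magnetic beads and were described as over 90% CD31-, EpCam- and CD45+, so the class is what the enrichment let through and its share cannot be read as its share of a tumour.

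In stratified epithelia and in the outer layer of mammary ducts, Krt5 and Krt14 pair into the filaments of basal cells, which are held to the basement membrane by hemidesmosomes and depend on the transcription factor Trp63. Epithelial cells respond to interferons through sets of transcription factors, Irf1 among them, that bind interferon-stimulated response elements (ISRE) or gamma-activated sites (GAS) in promoters and drive the guanylate-binding proteins and immunity-related GTPases, a family of proteins that attack the membranes around intracellular pathogens. The same receptors for double-stranded RNA can also drive chemokines that draw leukocytes.

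The class made up 5.55% of cells in the control library (95% exact binomial interval 4.98 to 6.15%), 3.37% in the phenformin library (2.91 to 3.89%), 8.17% in the poly I:C library (7.52 to 8.86%) and 4.58% in the combination (4.14 to 5.06%). The order of the libraries was poly I:C, control, combination, phenformin. The control and combination intervals met between 4.98 and 5.06%, and no other neighbours in this order overlapped. Members were deep, with a median of 24437, 29102, 25700.0 and 25005 UMIs in the control, phenformin, poly I:C and combination libraries against 6543, 8312, 8430.0 and 5902 over all cells. At the edge of the rule, 7, 7, 13 and 15 members held 5 or 6 keratin UMIs, and 12, 8, 9 and 8 otherwise eligible cells with 3 or 4 lay just outside it. Between 8 and 21 barcodes were shared by any pair of libraries, and none of these was that of a member in both libraries.

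The basal identity went beyond the 2 keratins of the rule. In counts per 1000000 member UMIs (CPM), Krt5 (ENSMUSG00000061527, in GRCm38 as all gene positions here, chromosome 15, 101707070 to 101712898) stood at 2013, 1743, 1673 and 1886 in the control, phenformin, poly I:C and combination libraries, and values below keep this order. Krt14 (ENSMUSG00000045545, chromosome 11, 100203162 to 100207548) stood at 1946, 1883, 2981 and 3081 CPM. Krt17, a keratin of activated basal cells, was at 777, 625, 947 and 676 CPM against 47.1, 20.5, 58.3 and 40.6 in all other cells. Sfn, the epithelial 14-3-3 sigma protein, was at 1498, 1414, 1961 and 1904 CPM against 107, 55.1, 112 and 109. Lgals7, a galectin of stratified epithelia, was at 1827, 2034, 2310.4 and 2400.5 CPM against 139.8, 81.9, 129.9 and 135. In each library these genes were far above the other cells, and the summed level of 25 basal epithelial genes was 1146 to 1839% of theirs. Other cells are here all passing cells outside the class, not leukocytes alone. They include the 132, 55, 122 and 120 keratin-positive cells left out for leukocyte transcripts, and cells with Krt8 or Krt18 only. The part of these cells in the epithelial values of other cells was not tested. Hemidesmosome and desmosome genes belonged to the same profile, with Itgb4, the hemidesmosomal integrin subunit, at 639.5, 629.9, 446 and 540.3 CPM and Col17a1, a hemidesmosomal collagen, at 288, 249, 212 and 197. The 20 genes with the highest ratio over other cells were, in order, Krt17, Sfn, Prkg2, Krt5, Lgals7, Fst, Krt14, Krt6a, Krt7, Sncg, Itgb4, Col17a1, Tpm2, Crabp2, Perp, Hmga2, Acan, Sox9, Dsp and S100a14.

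**Figure D1:**
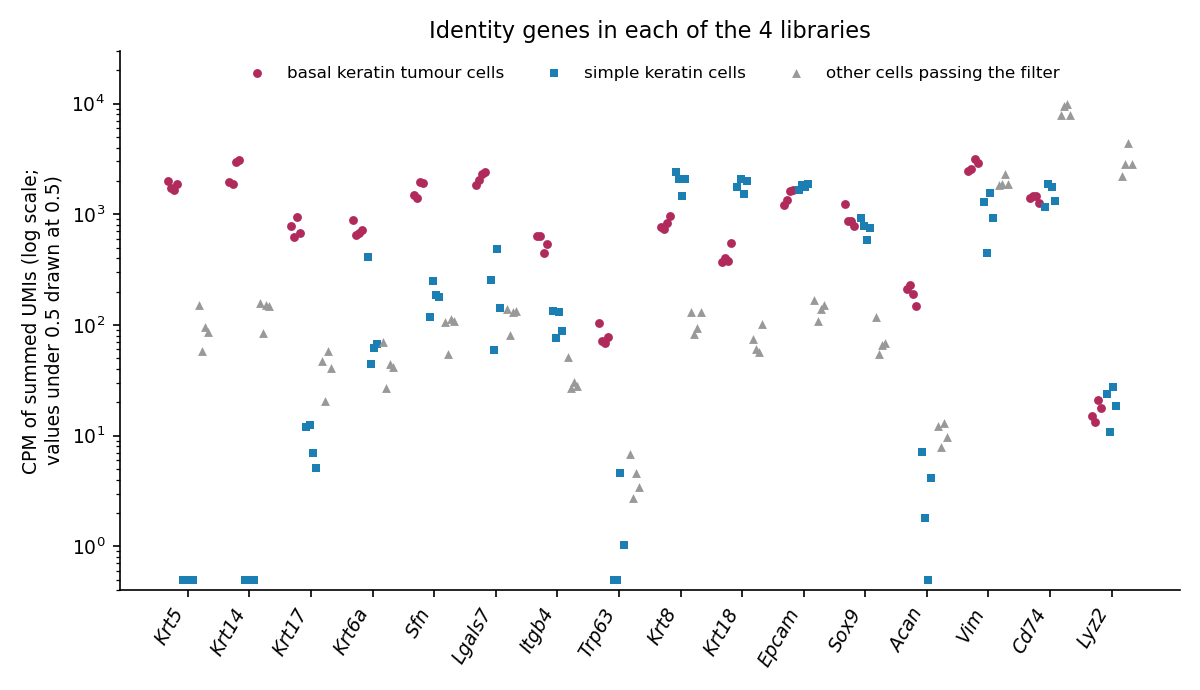
Levels of identity genes in each library, in CPM on a log axis. Shown are member cells, cells with Krt8 or Krt18 and no Krt5 or Krt14, and all passing cells outside the class, which include the latter. Basal genes such as Sfn (1498 CPM in control members and 107 in other control cells) lie far above the other cells in each library.

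The markers fitted a basal keratin cell that also held transcripts of simple epithelium and, in part, of mesenchyme. No normal basal layer was part of the data, and no measure used here separates tumour cells from basal cells of the host. Krt8 and Krt18, the keratins of simple and luminal epithelium, were co-expressed: Krt8 was at 775, 732, 832 and 969.7 CPM and Krt18 at 371, 401, 379 and 545. After thinning each cell to 2000 UMIs, 79.5, 74.7, 77.5 and 82.4% of members held a UMI of Krt8 or Krt18 (98.8, 98.4, 98.3 and 98.2% unthinned), against 0.708 to 1.89% of thinned T cells, which should lack both. The T cells used for this background had at least 2 Cd3 UMIs and a median of 5316 to 7489 UMIs. Myoepithelial contraction genes were nearly absent, with Acta2 (smooth muscle actin) at 1.04, 5.57, 19 and 9.55 CPM and 8 or 9 of 9 such genes under 20 CPM in each library. Mesenchymal genes were present in part: Vim, the intermediate filament of mesenchyme, was at 2469.7, 2542, 3177 and 2924 CPM and Twist1, a transcription factor of mesenchymal transition, at 227, 196, 206 and 247, while Zeb1 stayed between 0 and 0.462 CPM and the epithelial adhesion gene Cdh1 was at 136, 108, 72.5 and 83.8. Epcam was at 1205, 1345, 1617 and 1658 CPM, although the enriched cells were described as negative for its protein. The terminal squamous genes Ivl, at 0 to 0.479 CPM, and Lor, at 1.04 to 2.39, were near the floor. The whole keratinocyte differentiation list was not, as its 15 genes summed to 464, 387, 535 and 627 CPM. In other cells they summed to 45.7, 25.7, 46.1 and 43.3.

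Transcripts of other cell types were low in members. The T and NK cell list summed to 12.5, 7.91, 7.81 and 9.55 CPM, with 12 of 12 genes under 20 CPM, and the neutrophil list to 15.3, 11.5, 11.2 and 13.0, with 9 of 9 under 20. The macrophage list summed to 133, 125, 155 and 176 CPM, which was 0.587 to 1.03% of its level in other cells. C1qa, a macrophage complement gene, was at 8.09, 10.2, 15.6 and 19.1 CPM in members and at 1231, 1608, 2908 and 3266 in other cells. In other cells the macrophage list summed to 12921, 17454, 26411 and 21314 CPM, highest with poly I:C. Macrophage transcripts in members thus differed between libraries at a low level, and their part in the small differences below was not tested. Cst3 and Fscn1 carried the dendritic list, of which 8 of 10 genes were under 20 CPM. At least 3 UMIs of other cells' defining transcripts were found in 51, 40, 151 and 114 members, and leaving these cells out moved no ratio of a gene ranked highest or lowest in a comparison by over 1.5 times.

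Across the class, treated libraries shifted away from the control mostly by lower values. Genes with at least 50 CPM and 30 UMIs in the higher library of a pair were compared, and all 3 treated libraries were set against the same control library, so these comparisons share its counts. With phenformin, 0 of 3015 genes (0%) were higher by 2-fold or more, and 1 (0.0332%) was lower by that much. With poly I:C, 6 of 3067 (0.196%) were higher and 22 (0.717%) lower. With the combination, 5 of 3093 (0.162%) were higher and 22 (0.711%) lower. Between treated libraries, 4 of 2763 genes (0.145%) were higher and 3 (0.109%) lower in the combination than with poly I:C alone, and 8 of 2884 (0.277%) were higher and 3 (0.104%) lower than with phenformin alone. The excess of lower genes depended on the scaling: TMM, which levels a trimmed and weighted mean over genes, changed the median log2 ratio of compared genes over control from -0.07 to 0.06 (phenformin), from -0.06 to 0.19 (poly I:C) and from -0.04 to 0.14 (combination). Under it the split for poly I:C turned to 15 higher and 3 lower, and for the combination to 18 higher and 9 lower.

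The ratios also followed transcript length. In 5 equal bins of compared genes from short to long transcripts, the median log2 ratio of poly I:C over control was 0.19, 0.10, -0.08, -0.26 and -0.44 in members, and 16 of the 22 lower genes lay in the 2 longest bins (6 and 10). For the combination the medians ran from 0.22 to -0.35, and for phenformin from 0.06 to -0.22. Other cells of the libraries had the same slope with a smaller span, from 0.07 to -0.26 for poly I:C and from 0.13 to -0.22 for the combination. Between the combination and poly I:C alone the medians lay between 0.03 and 0.07 with no slope of that size. The abundant gene model Gm42418, which overlaps ribosomal RNA and was chosen after its values were seen, had the same order of libraries, at 27456, 21342, 17120.2 and 10956 CPM in members and 43387, 38685, 38435 and 25963 in other cells. Whether these library-wide shifts carry any of the gene differences below was not tested, and the medians of the lists on which results turn are therefore set beside those of all genes and of the matching length bin.

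**Figure D2:**
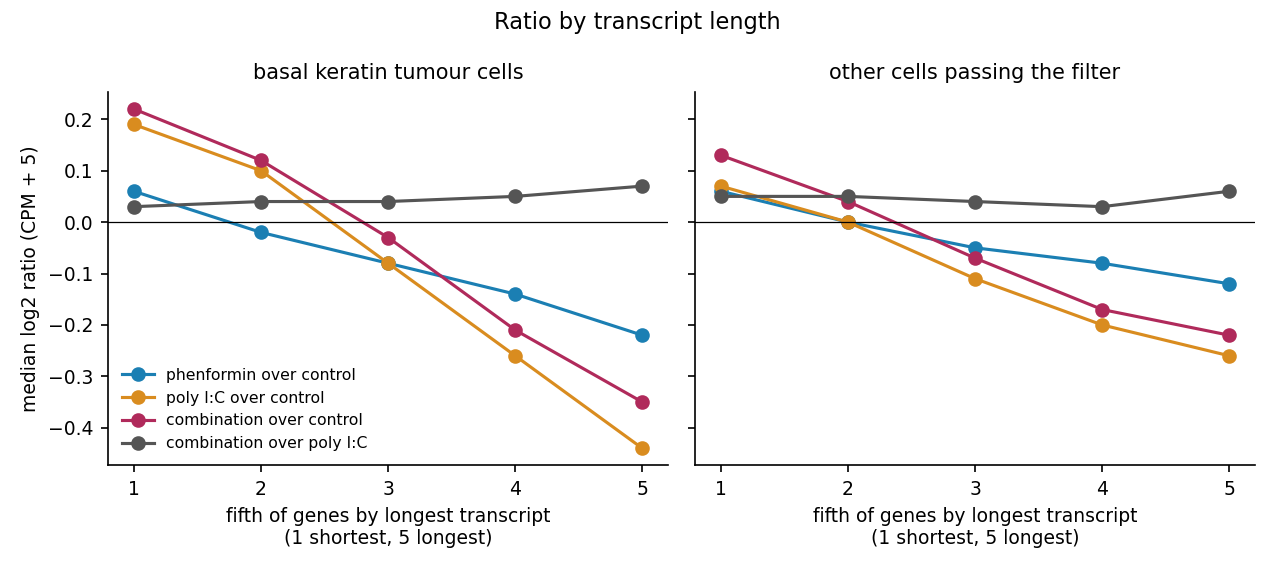
Median log2 ratio of each treated library over the control, and of the combination over poly I:C, in 5 bins of compared genes. Bins are ordered by transcript length, for member cells and for other cells. For poly I:C the members run from 0.19 in the shortest bin to -0.44 in the longest, and other cells from 0.07 to -0.26.

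In each treated library 14 of 17 interferon-gamma genes had a ratio below 1 in members, and most were lower by the rule given next with the combination. For lists, genes with at least 20 CPM in any library were counted as higher or lower when they differed at least 1.5-fold with an interval leaving out 1, and of all 6004 such genes 2.30% were higher and 11.3% lower in the combination than in the control. A gene that passes 20 CPM only where it is high is bound to differ, so these counts describe the list. Of 22 listed interferon-gamma genes 17 reached 20 CPM, and 13 of these were lower and 0 higher in the combination, with a median log2 ratio of -0.77 against -0.12 over all genes and -0.09 for the same list in other cells. The median transcript of the list was 2908 bases, which lies in the middle length bin, where the median for all compared genes was -0.03. With poly I:C alone 5 of 17 were lower and 1 higher (median -0.38 against -0.16 over all genes, background 16.9% lower and 1.78% higher), and with phenformin alone 2 were lower and 1 higher (median -0.27 against -0.11, background 2.83% and 0.750%). The medians stayed below 0 under TMM at -0.62, -0.15 and -0.15 for the combination, poly I:C and phenformin.

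Iigp1, an immunity-related GTPase, was at 995 CPM in the control, 803 with phenformin, 846 with poly I:C and 588 with the combination. The combination was the lowest library, at 0.591 of the control (0.571 to 0.611). Gbp2 (ENSMUSG00000028270, chromosome 3, 142620602 to 142638008), a guanylate-binding protein, followed the same order at its ends, with 679.8, 443, 486 and 343 CPM and 0.504 of the control in the combination (0.483 to 0.526). In other cells Gbp2 was at 381, 379, 342 and 264 CPM. Igtp, another immunity-related GTPase, was at 405, 319, 279 and 206 CPM in members, or 0.509 of the control in the combination (0.481 to 0.538), and at 152, 119.6, 141 and 143 in other cells. Irgm1, a regulatory member of that family, was at 389, 320.0, 224 and 207 CPM. Irgm2, also regulatory, was at 78.6, 49.8, 33.7 and 24.5 CPM, or 0.312 of the control in the combination (0.268 to 0.362), and at 40.4, 30.7, 28.1 and 37.3 in other cells. Irf1, the transcription factor that drives many of these genes, was at 85.6, 60.4, 55.6 and 40.5 CPM, or 0.473 of the control (0.417 to 0.535), and at 131, 128, 111 and 125 in other cells. For each of these 6 genes the control was the highest and the combination the lowest of the 4 libraries in members. The gene models of Igtp (58199556 to 58207591) and Irgm2 (58199618 to 58222782) overlap on chromosome 11, and guanylate-binding proteins are close paralogs, so reads may be split or dropped among them and the single-gene values are uncertain to that extent.

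The promoters of the 3 list genes with the lowest ratio in the combination, among those with at least 50 CPM in the control and a promoter in the RefSeq table, are shown because interferon-responsive factors are known to bind such motifs, and the capitals show where their letters lie. They are the 250 bases before the RefSeq start in GRCm38.p6, plus strand, 5′ to 3′, with the motif matches in capitals: GAAANNGAA on either strand for an ISRE-type element and TTCNNNGAA, which reads alike on both strands, for a GAS. Matches of both kinds may share letters, and those printed do not. The first line is Irgm2 at chr11:58214727-58214976, with a GAS shortly before an ISRE-type match. Next is Irf1 at chr11:53769764-53770013, with a GAS alone. Of the 2 starts listed for Irf1, the start with more matches was printed, and the other holds neither motif. Last is Gbp2 at chr3:142620413-142620662, with an ISRE-type match read on the reverse strand.
Irgm2: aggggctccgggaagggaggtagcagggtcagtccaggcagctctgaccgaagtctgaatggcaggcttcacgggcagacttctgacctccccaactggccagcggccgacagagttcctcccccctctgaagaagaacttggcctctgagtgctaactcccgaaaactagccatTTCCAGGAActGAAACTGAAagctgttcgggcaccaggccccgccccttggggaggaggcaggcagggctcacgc
Irf1: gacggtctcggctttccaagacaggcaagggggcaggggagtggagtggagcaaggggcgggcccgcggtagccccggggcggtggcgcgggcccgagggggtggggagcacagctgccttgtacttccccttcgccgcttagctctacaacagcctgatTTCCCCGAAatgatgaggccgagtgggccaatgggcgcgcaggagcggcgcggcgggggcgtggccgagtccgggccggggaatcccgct
Gbp2: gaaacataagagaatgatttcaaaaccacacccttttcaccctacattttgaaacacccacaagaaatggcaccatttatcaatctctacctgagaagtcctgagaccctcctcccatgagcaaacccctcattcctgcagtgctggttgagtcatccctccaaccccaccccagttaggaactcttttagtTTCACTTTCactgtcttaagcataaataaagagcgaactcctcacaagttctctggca
Over windows of 250 bases before to 50 after the start, an ISRE-type match lay in 8.56% and a GAS in 8.30% of 32851 promoters. Of the 17 list genes, 13 had a promoter in the table, 11 of these had an ISRE-type match and 6 a GAS. A match is a run of letters and not a bound site, and Cxcl9 and Cxcl10, whose levels went the other way, also had an ISRE-type match.

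Not all interferon targets were lower. Cxcl9, a chemokine for T cells, was at 526, 789.7, 810.1 and 610.2 CPM, which put it at 1.5 of the control with phenformin (1.44 to 1.57), 1.54 with poly I:C (1.49 to 1.59) and 1.16 with the combination (1.12 to 1.21). Other cells held more of it, at 794, 1399.5, 1623 and 1190.1 CPM in the same order of libraries. In thinned cells 29.3, 37.4, 38.6 and 28.6% of members had a Cxcl9 UMI, against 9.41, 10.4, 14.8 and 13.1% of T cells. Cxcl10, a chemokine of the same receptor, was at 241, 313, 338 and 338 CPM in members and at 80.3 to 108 in other cells. In CPM the control was the lowest library for both chemokines, but by share of thinned cells Cxcl9 in the combination was no higher than in the control. For Cxcl10 the thinned shares were 13.9, 15.9, 17.0 and 14.4%. Its intervals in the control (10.4 to 18.1%) and the combination (11.0 to 18.4%) overlapped. Iigp1 was lower in thinned cells too, with a UMI in 60.4, 54.9, 52.4 and 41.2% of members against 6.11 to 6.37% of T cells.

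Many type I interferon genes were lower with poly I:C and the combination, while the sum of the list was about level with the control in the combination. The 39 listed genes found summed to 6045, 6615, 5561 and 6019 CPM in members, and the median cell held 53.1, 54.4, 50.8 and 51.8 of their UMIs per 10000. Gene by gene, of 28 genes at 20 CPM, 15 were lower and 0 higher with the combination (median log2 -0.56), 10 were lower and 0 higher with poly I:C (-0.45), and 2 were lower and 1 higher with phenformin (-0.12). The background was 11.3, 16.9 and 2.83% lower and 2.30, 1.78 and 0.750% higher in that order. Over all genes the medians were -0.12, -0.16 and -0.11 in that order, so the phenformin value was that of genes at large, and in the middle length bin, where the list's median transcript of 3048 bases lies, they were -0.03, -0.08 and -0.08. In other cells the list medians were 0.24, 0.17 and -0.07 for the same comparisons. Under TMM the medians in members were -0.43, -0.23 and 0.00. Herc6, an interferon-induced ubiquitin ligase, was at 52.7, 38.1, 28.4 and 22.2 CPM and Stat2, the interferon signal transducer, at 52.8, 41.9, 22.9 and 25.6. In other cells the same genes were nearly level, with Herc6 at 45.4, 40.7, 40.7 and 42.8 CPM and Stat2 at 51.6, 44.9, 40.5 and 47.1. Rnf213, an interferon-induced ubiquitin ligase with a very long transcript, was at 252, 174, 118 and 110.1 CPM and Dtx3l, a partner of Parp9 in interferon signalling, at 89.8, 54.3, 34.9 and 34.6. Both were highest in the control library. Isg15, a ubiquitin-like protein with a short transcript, differed little at 466, 489.8, 429.9 and 413 CPM, and Ifitm3, a membrane restriction factor, was higher in each treated library at 2076, 2667, 2305 and 2761.

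**Figure D3:**
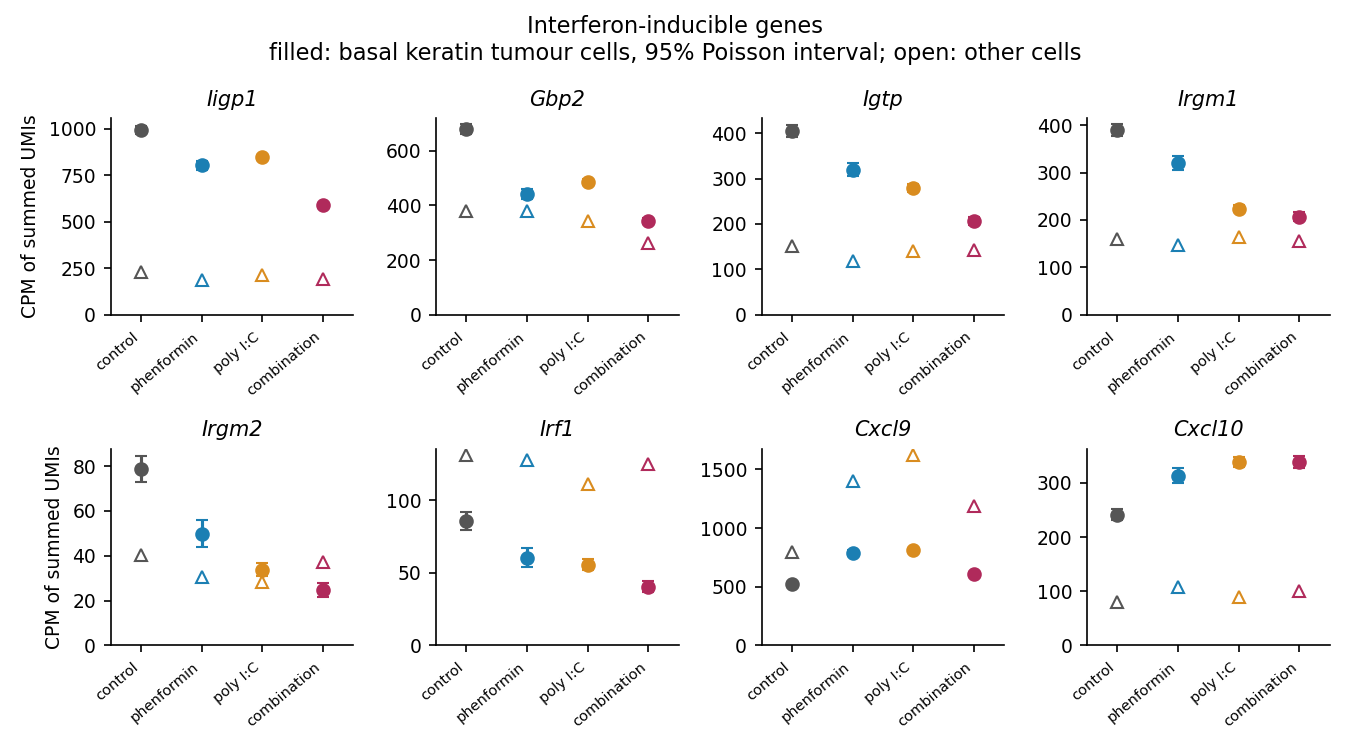
Levels of interferon-responsive genes in member cells by library, in CPM with 95% exact Poisson intervals. Gbp2 is at 679.8 in the control and 343 in the combination, while Cxcl9 is lowest in the control at 526.

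Genes for sensors of double-stranded RNA were lower in part with poly I:C and the combination. Tlr3, the endosomal receptor for poly I:C, was at 15.4, 11.1, 9.18 and 6.33 CPM. Ifih1, which encodes MDA5, was at 27.2, 24.8, 18.2 and 14.2 CPM and Ddx58, which encodes RIG-I, at 52.6, 42.1, 28.6 and 27.5. All 3 were highest in the control, and Ddx58 was about level between poly I:C and the combination. Of 9 sensing and necroptosis genes at 20 CPM, 4 were lower and 0 higher with poly I:C and 4 lower and 0 higher with the combination (medians -0.46 and -0.37). With phenformin 0 were lower and 0 higher (median -0.19). The background over all genes was 16.9, 11.3 and 2.83% lower and 1.78, 2.30 and 0.750% higher in the same order. The list's median transcript of 4313 bases lies in bin 4 of the length bins, where the medians were -0.26, -0.21 and -0.14 for these comparisons. No UMI of Ifnb1, Ifna2 or Ifng was found in members. At this depth 3 UMIs would be 0.347, 0.539, 0.205 and 0.311 CPM, so levels of about that size could have gone unseen. Cd274, the checkpoint ligand PD-L1, was at 29.5, 16.4, 11.3 and 7.89 CPM in members and at 197, 196, 187 and 162 in other cells.

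Antigen presentation stayed closer to the control. H2-K1, a class I heavy chain, was at 2515, 2819, 2736 and 2843 CPM, H2-D1 at 3885, 4678, 5067 and 4884, and B2m, their light chain, at 3831, 4025, 3814 and 3720.3; the heavy chains are near-identical paralogs and their split is uncertain. The peptide transporter subunit Tap1 was lower, at 204, 182, 137 and 133 CPM, and the immunoproteasome subunit Psmb8 higher, at 914, 1097, 1200.1 and 1218. Of 21 class I pathway genes, 5 were lower and 0 higher with the combination (background 11.3% lower and 2.30% higher). The median log2 ratio was -0.02, or 0.14 under TMM, so its sign depends on the scaling. Class II transcripts were present, with Cd74, the invariant chain, at 1394, 1455, 1457 and 1259 CPM against 7919, 9432, 9915 and 7802 in other cells. Cd74 was thus found in members at a level below that of the other cells in each library.

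Keratins differed between the libraries one by one. Krt14 was at 1.53 of the control with poly I:C (1.51 to 1.56) and 1.58 with the combination (1.55 to 1.61), and at 0.968 with phenformin (0.945 to 0.992). It helped choose the cells, so its ratios are a description. Krt16, a keratin of activated epidermis, was at 48.2, 24.6, 102 and 90.7 CPM, which was 2.11 of the control with poly I:C (1.89 to 2.35) and 0.511 with phenformin (0.418 to 0.621). Between the combination and phenformin alone, which share no library with the poly I:C contrast, Krt16 differed 3.69-fold (3.07 to 4.45), or 5.60-fold in thinned cells. Of the other keratins of activated epithelium, Krt17 was at 1.22 of the control with poly I:C (1.18 to 1.26) and 0.870 with the combination (0.841 to 0.901), and Krt6a, at 879, 649, 673 and 722 CPM, was lower in each treated library. Sprr1b, a cornified envelope precursor, was at 49.6, 39.0, 54.2 and 91.0 CPM and Dmkn, a secreted product of differentiating keratinocytes, at 97.3, 56.6, 93.2 and 113. Krtdap, a gene of keratinocyte differentiation, was at 2.29 of the control with poly I:C (1.92 to 2.74) and 2.66 with the combination (2.22 to 3.20). The differentiation keratin Krt10 was near the control, at 1.09 (0.912 to 1.31) and 1.01 (0.829 to 1.24). Of 8 keratinocyte differentiation genes at 20 CPM, 4 were higher and 0 lower in the combination than with phenformin alone (background 1.35% higher and 2.23% lower). The basal list itself held more lower than higher genes, with 6 of 22 genes lower and 1 higher in the combination (median -0.38). The background was 11.3% lower and 2.30% higher. The list's median transcript of 4768 bases lies in bin 4 of the length bins, where all compared genes had a median of -0.21.

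Secreted defence and inflammatory genes were highest in the combination. Slpi, a leukocyte protease inhibitor made by epithelia, was at 48.6, 67.2, 103 and 205 CPM, or 4.21 of the control in the combination (3.78 to 4.69). Lcn2 (ENSMUSG00000026822, chromosome 2, 32384633 to 32388252), an iron-scavenging lipocalin, was at 128, 152, 153 and 363 CPM, or 2.83 of the control (2.65 to 3.03). Few cells carried much of both genes: 2 members held 1515 of the 3500 Lcn2 UMIs of the combination, and without the 2 highest cells of each library the ratios were 1.88 for Lcn2 and 2.59 for Slpi. Other cells held Lcn2 at 178, 216, 103 and 282 CPM and Slpi at 99.1, 157, 215 and 160.0, so both genes were also expressed outside the class. Cxcl1, a neutrophil chemoattractant, was at 109, 99.9, 156 and 204 CPM, or 1.86 of the control in the combination (1.72 to 2.02), and Csf3, the granulocyte growth factor, at 15.7, 15.1, 27.1 and 35.4. Of 9 myeloid chemoattractants and growth factors at 20 CPM, 4 were higher and 1 lower in the combination than in the control (background 2.30% and 11.3%). Against poly I:C alone 3 were higher and 0 lower (background 0.550% and 0.416%), and against phenformin alone 5 were higher and 0 lower (background 1.35% and 2.23%). Lcn2 counts among each of these. Within the class the neutrophil markers stayed at 13.0 CPM in sum, as given above.

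Single growth and matrix genes differed in both directions. Of 16 extracellular matrix and protease genes at 20 CPM, 1 was higher and 1 lower with the combination (median log2 -0.20, background 2.30% and 11.3%). Areg, an EGF receptor ligand, was at 304, 348, 331 and 518 CPM and Spp1, the secreted phosphoprotein osteopontin, at 1828, 2390.3, 2516 and 3176. Timp1, an inhibitor of matrix proteases, was at 133, 166, 176 and 239 CPM, and its relative Timp3 went the other way at 683, 535, 423 and 322. For each of these 4 genes the control and the combination were the 2 extremes, with both single treatments between them. H19, an imprinted non-coding RNA, was at 202, 155, 133 and 72.0 CPM, or 0.355 of the control in the combination (0.325 to 0.388), and in other cells at 4.05 to 7.94. Sox9 (ENSMUSG00000000567, chromosome 11, 112782224 to 112787760), a transcription factor of progenitor and cartilage cells, was at 1248, 878, 864 and 787 CPM, lower in each treated library.

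**Figure D4:**
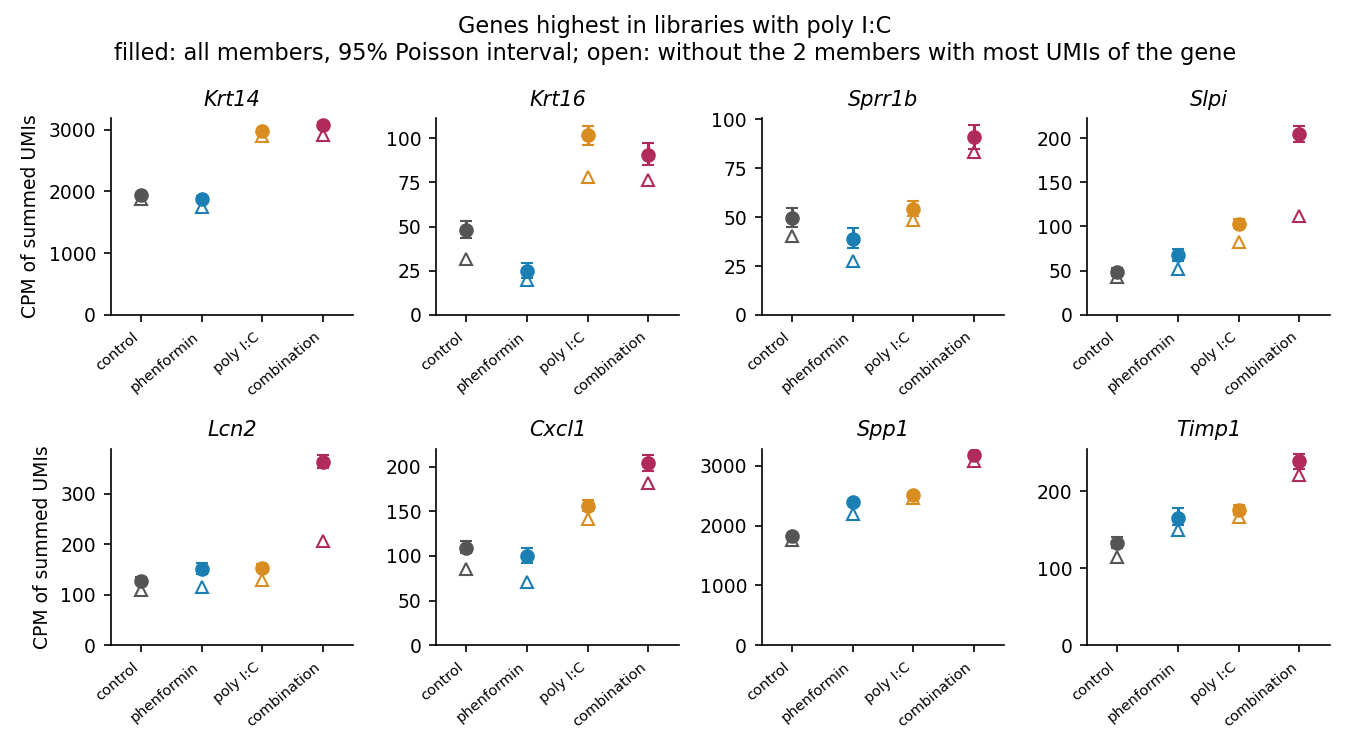
Levels of genes named as higher or lower in the treated libraries in member cells, in CPM with 95% exact Poisson intervals. Slpi is at 48.6 in the control and 205 in the combination, of which a few cells carry a large part.

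Genes of G2 and mitosis were higher in part with the combination. Of 17 genes of G2 and mitosis at 20 CPM, 5 were higher and 0 lower with the combination, 17 of 17 had a ratio above 1, and the median log2 ratio was 0.38, against -0.12 over all genes, -0.21 in the length bin of its median transcript and -0.02 in other cells. With poly I:C 2 were higher and 0 lower (median 0.22), and with phenformin 0 and 0 (0.12). Of 17 S phase genes 3 were higher and 0 lower with the combination, 3 and 0 with poly I:C, and 0 and 1 with phenformin. For both lists the background was 2.30, 1.78 and 0.750% higher and 11.3, 16.9 and 2.83% lower in that order. Ube2c, a ubiquitin-conjugating enzyme of mitosis, was at 107, 130.1, 142 and 193 CPM, and Cdk1, the mitotic kinase, at 67.4, 95.3, 105 and 116. Both had their lowest CPM in the control, although Cdk1 with phenformin was at 1.41 of the control in all UMIs and 0.939 in thinned cells. Not all proliferation genes followed: with poly I:C, Mki67, the proliferation antigen, was at 0.900 of the control (0.822 to 0.986) and Cenpe, a mitotic motor protein, at 0.783 (0.694 to 0.883). In thinned cells 16.9, 19.8, 17.8 and 20.1% of members held a UMI of Mki67 or Top2a, a narrow range.

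With phenformin alone no gene reached a 2-fold higher level, and Mt1 was among the genes with the highest ratios. Mt1, a metal-binding stress protein, was at 955, 1623, 1365 and 1105 CPM, or 1.70 of the control with phenformin (1.65 to 1.75), and at 1056, 1434, 1381 and 836 in other cells. Igfbp2, an IGF-binding protein, was at 215, 345, 315 and 309.7 CPM and Slc2a1, the glucose transporter GLUT1, at 151, 222, 162 and 173. Phenformin was the highest library for all 3. Clec11a, a secreted growth factor, was at 67.2, 116, 95 and 96.9 CPM, with a phenformin ratio of 1.73 (1.54 to 1.94) that was 1.06 in cells thinned to 2000 UMIs. Ifitm10 was the 1 gene at least 2-fold lower, at 55.6, 27.1, 19.8 and 23.2 CPM, and Adamts1, a secreted matrix protease, was at 541, 309.5, 286 and 299. Both were low in every treated library.

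Subunits of complex I, the enzyme phenformin inhibits, shifted little. Of 37 nuclear-encoded subunit genes 1 was higher and 0 lower with phenformin (background 0.750% and 2.83%). A ratio above 1 was found for 30 of them, and the median log2 ratio was 0.15, the same as in other cells at 0.15. With poly I:C the median was 0.25 and with the combination 0.28. Their median transcript is 1046 bases, which lies in the shortest bin, where all compared genes had medians of 0.06, 0.19 and 0.22 for these comparisons. The 13 mitochondrially encoded respiratory genes had medians of 0.03, -0.12 and -0.15, or 0.15, 0.11 and 0.01 under TMM, so their direction with poly I:C and the combination depends on the scaling. Of 18 glycolysis genes 0 were higher and 0 lower with phenformin, against the background of 0.750% and 2.83%.

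**Figure D5:**
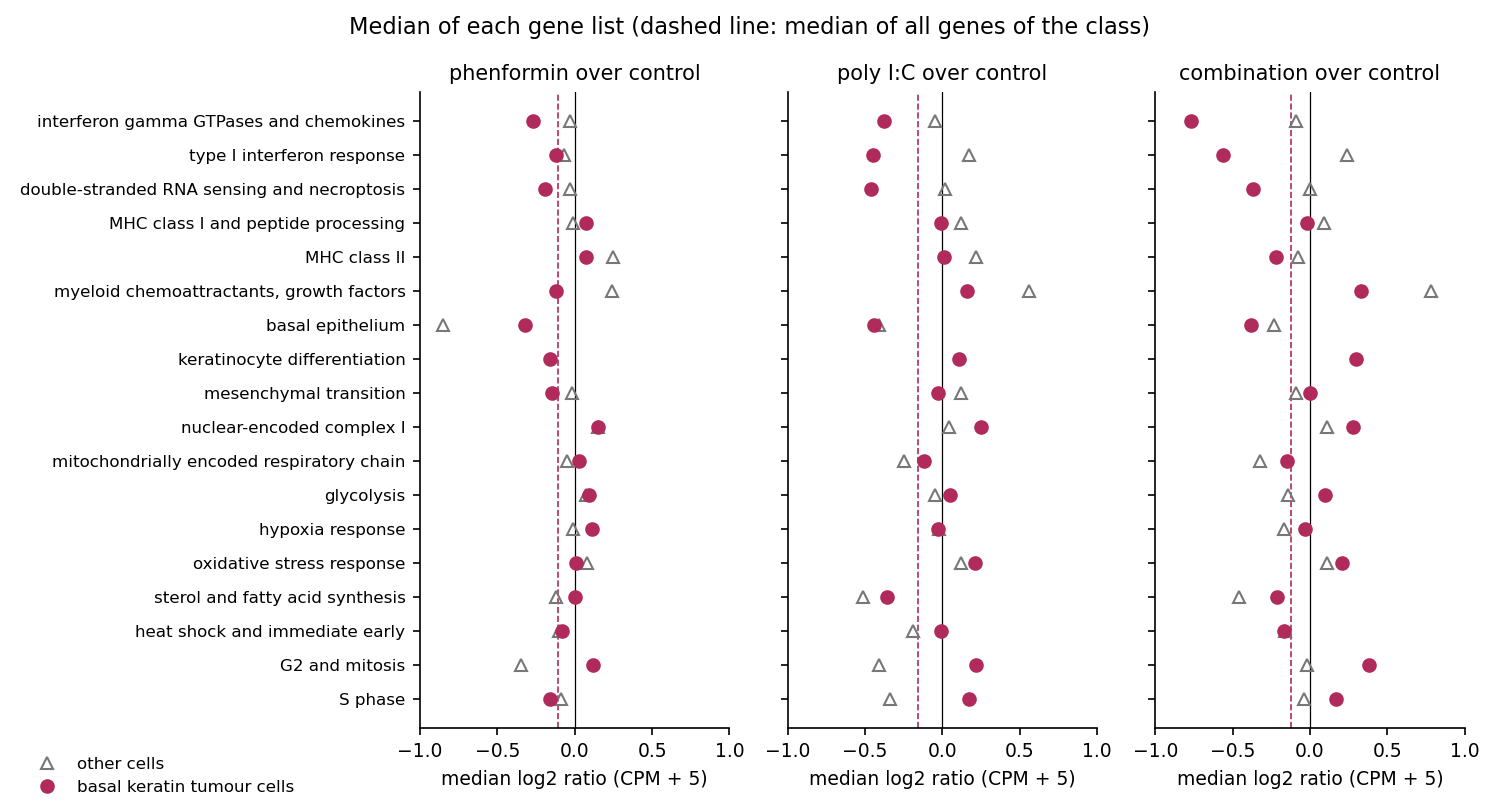
Median log2 ratio over the control library of the gene lists in member cells, with the median over all genes for reference. The interferon-gamma list reaches -0.77 with the combination and the G2 and mitosis list 0.38, against -0.12 for all genes.

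Some genes did not add across the treatments. Adding the log2 ratios of both single treatments and subtracting the sum from that of the combination gave 1.01 for Sprr1b, 1.0 for Dmkn and 0.98 for Lcn2, so these were higher in the combination than the sum. The Lcn2 value rests on few cells and on the milk gene limit, since its combination ratio was 1.88 without the 2 highest cells and its phenformin ratio of 1.18 was 2.01 without that limit. The same subtraction gave -1.12 for Nupr1, a stress-induced nuclear protein, at 72.0, 105, 153 and 98.6 CPM, and -1.11 for Igfbp5, an IGF-binding protein, at 37.0, 36.8, 78.3 and 33.5. Igfbp5 was highest in the poly I:C library, at 2.12 of the control (1.87 to 2.40), or 3.64 in thinned cells. Its ratio of the combination over poly I:C was 0.428 (0.377 to 0.485), but 0.763 in thinned cells and 0.766 as a mean over cells, so its departure from the sum depends on how cells are weighted. Alox12e, an epidermal lipoxygenase, was lowest with poly I:C, at 93.6, 112, 28.5 and 60 CPM, and also below the control in the combination, at 0.641 (0.575 to 0.714). Atf3, a stress-induced transcription factor, was at 84.5, 65.3, 94.9 and 44.6 CPM, lowest in the combination.

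Members differed widely among themselves. Among members with at least 10000 UMIs, Krt6a in the control ran from 0.413 UMIs per 10000 at the lower quartile to 11.7 at the upper, and 64 of 299 cells had none. Krt14 had medians of 14.6, 14.0, 23.9 and 21.3 UMIs per 10000, a description, since its counts helped choose the cells. Iigp1 had medians of 6.50, 5.21, 4.86 and 1.97 and Gbp2 of 4.58, 3.14, 2.67 and 1.64, and the share of these cells with no Iigp1 UMI was 12.4, 14.4, 20 and 23.2%. The lower GTPase level in the combination was thus found in the median cell as well as in the sum. Slpi behaved otherwise, with a median of 0 in each library and no UMI in 63.2, 59.3, 61.9 and 56.3% of cells. For the whole interferon-gamma list, the median cell thinned to 2000 UMIs held 7, 5, 4 and 2 UMIs.

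Some pairs of related genes varied together from cell to cell, and others did so only weakly. Across those 299, 167, 506 and 327 cells, which share a library and a depth scale and were paired after the values were seen, Spearman coefficients of Iigp1 with Gbp2 were 0.53, 0.60, 0.69 and 0.61. Krt14 with Krt6a gave 0.48 to 0.54 and Krt8 with Krt18 gave 0.49 to 0.61. Cxcl9 with Cxcl10 gave 0.50 to 0.57 and Cxcl9 with Iigp1 0.38 to 0.56. Weaker pairs were Krt14 with Krt17 at 0.33 to 0.39, Lcn2 with Trf at 0.30 to 0.38 and Acan with Col9a3 at 0.16 to 0.34. Krt14 with Lcn2 was negative at -0.29, -0.28, -0.38 and -0.45, so cells with more Krt14 had less Lcn2. Krt14 with Krt8 was near 0, from -0.11 to 0.08.

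Krt19 (ENSMUSG00000020911, chromosome 11, 100140810 to 100148665), a keratin of simple epithelium, set a few members of the combination apart. It was at 0, 0, 0.0685 and 51.5 CPM. In the control and phenformin libraries, with 0 UMIs, 3 UMIs would be 0.347 and 0.539 CPM, and levels of about that size could have gone unseen. In the combination 2 of 379 members held 99.4% of its 496 UMIs, with 156 and 337 each, and the other 377 members had 0.314 CPM. The cell with 337 also had 130 UMIs of Krt5, 399 of Krt14, 521 of Slpi and 0 of Lcn2 among 58452 UMIs, and the cell with 156 had 2 of Krt5, 5 of Krt14 and 11 of Slpi among 16975. The latter had 102 UMIs of Krt8, 115 of Krt18 and 0 of Trp63, so its basal keratins lay near the limit of the rule and far below its simple keratins. The former had 225 of Krt8, 232 of Krt18 and 11 of Trp63. Without both cells, Slpi in the combination was 151 CPM and 3.1-fold over the control. Krt19 was at 7.18, 34.0, 0 and 198 CPM in the 105 cells with Krt8 or Krt18 and no Krt5 or Krt14, so its highest level there also lay in the combination.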

How the data were processed

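Single-cell 3' RNA libraries of CD45-enriched cells from mouse mammary tumours were analysed, 1 library per treatment. The authors deposited raw UMI counts per gene and barcode for each library, made with Cell Ranger 3.1.0 on mm10 (GRCm38) per the submitters' processing notes; aligner and counting settings: not given in the sources used here. The files held 7309, 6539, 7668 and 9303 barcodes and 59071838, 62744050, 77488625 and 72704517 UMIs in the control, phenformin, poly I:C and combination libraries, over 27998 gene features.

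Barcodes passed with 200 or more genes and less than 20% mitochondrial UMIs. The keratin rule then removed 132, 55, 122 and 120 of the 471, 247, 666 and 502 keratin-positive cells for leukocyte transcripts and 1, 8, 3 and 3 for milk protein transcripts. No doublet caller was used; these exclusions and an alternative without members holding other cells' transcripts stood in its place. The counts of members (8654630, 5563218, 14600158 and 9631039 UMIs) were summed per library and scaled to a total of 1000000 (CPM). Ratios carry exact conditional 95% intervals and log2 ratios a pseudocount of 5 CPM, which understates the change of low genes. No test between treatments was made. Named genes were, per comparison, the 10 highest and 10 lowest with at least 50 CPM and 30 UMIs in the higher library and no less CPM in members than in other cells, the 5 at each end beyond the single treatments, up to 4 members of each of 39 lists with the largest ratio, and 20 markers. Without the limit against other cells, 1 to 5 of the 10 genes at each end failed it. Gene models named by number, ribosomal protein, globin, immunoglobulin and receptor segment genes, Xist and Y-linked genes were not ranked. The members and lists were chosen with earlier results of these data known.

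The annotation (GENCODE vM21) matched 27722 features by Ensembl ID (99.0%), and transcript length is that of the longest transcript. Promoters came from RefSeq (GRCm38.p6). The listed symbols Cxcl11, Hhla2, Igkc, Nectin2 and Oas1b matched no feature. The 12 other settings listed at the start changed the keratin limit, cell filter, milk limit, other cells' transcripts, scaling (TMM in edgeR 4.0.16, R 4.3.3), weight of cells, depth per cell, low-value filters, pseudocount and list limit. Python 3.11.15, numpy 2.4.6, scipy 1.17.1 and pandas 2.3.3 were used, and the ratio script was tested on simulated data.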

Additional observations from a re-analysis of the deposited data

Results flagged for a closer look

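Poly I:C went with opposite directions without and with phenformin for Mt1, Mlf1 and Gng11. The difference was not tested because each treatment had 1 library. All 3 rank among the 5 lowest beyond the single treatments, a ranking that favours such genes. They are not a full list, since the CPM of Atf3 given above also changed direction, and such genes were not counted over all genes. Mt1, a metallothionein, was at 1.43 in poly I:C over control (1.39 to 1.47) and at 0.681 in the combination over phenformin (0.662 to 0.700). Mlf1, a myeloid leukaemia factor also expressed in epithelia, was at 1.73 (1.5 to 1.99) and 0.815 (0.693 to 0.961). Gng11, a G protein gamma subunit, was at 1.33 (1.15 to 1.53) and 0.559 (0.471 to 0.663). Intervals of the pairs lie on opposite sides of 1 for each of the 3 genes.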

How the results depend on the processing

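No named gene and no list median past 1.5-fold turned its direction under any alternative run. Below that size 84 of 5048 gene ratios crossed 1, 45 of them in thinned cells and each from at most 1.49-fold. Among these, in thinned cells, Cdk1 with phenformin was at 0.939, Cdc20 with poly I:C at 0.852, Cxcl2 in the combination over control at 0.782 and Nppb in the combination over poly I:C at 0.960. Of 1430 recomputed list medians 102 changed sign, each from a size of at most 0.21 on the log2 scale, 29 of them under TMM. Of the results recomputed, 4 of 20 shares, 52 of 110 counts of genes, 182 of 1430 list medians and 978 of 5048 gene ratios moved beyond their limit. Without members holding other cells' transcripts the class was 4.71, 2.64, 5.89 and 3.21% of cells in the control, phenformin, poly I:C and combination libraries.

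Counts of genes at least 2-fold apart are given as higher then lower, first over control (phenformin, poly I:C, combination) and then for the combination against each single treatment (poly I:C, phenformin), naming only those that moved by over 1.5 times. Thinned to 2000 UMIs they were 3 and 79, 23 and 178, 31 and 121, 7 lower, and 41 and 11. With the mean over cells they were 1 and 2, 73 lower, 10 and 37, 2 and 1, and 5 lower. Under TMM they were 0 lower, 15 and 3, and 18 and 9. With limits of 20 CPM and 10 UMIs they were 2 and 11, 10 and 103, 15 and 62, 10 and 5, and 14 and 7. With no CPM limit and 5 UMIs they were 286 and 661, 463 and 1007, 447 and 795, 507 and 411, and 579 and 442, where genes of few UMIs enter. Without other cells' transcripts they were 1 and 2 for phenformin and 8 higher for the combination over control. Without the milk gene limit phenformin had 1 higher. With at least 3 keratin UMIs it had 0 lower, and the combination over phenformin 5 lower. With at least 10 keratin UMIs the latter had 5 higher, and with 500 genes and under 10% mitochondrial UMIs 6 lower. Leaving out, gene by gene, the 2 members with most UMIs, an alternative chosen after seeing the data like the removal of the Krt19-high cells, gave 1 higher over poly I:C and 1 lower over phenformin. The cause of these moves was not tested.

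No paired analysis was possible because each treatment had 1 library. Depth limits genes under 20 CPM most, and the phenformin members, the fewest at 184, have the widest intervals.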
